A study of Homo sapiens with 12 samples.

Results

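The genes examined here were NCALD (neurocalcin delta) and 5 further members of the neuronal calcium sensor family, HPCA (hippocalcin), HPCAL1 and HPCAL4 (hippocalcin-like proteins), VSNL1 (visinin-like protein) and NCS1 (neuronal calcium sensor 1). They were found by gene name in the deposited tables, 6 of 60660 annotated genes, and all 6 passed the filter on low values (a TPM, the length-scaled transcript abundance, of at least 1 in at least 2 libraries) that left 16842 genes for testing. The set was chosen by NCALD's TPM, which was low in shRCOR1 cells after doxycycline, and the family was added around it. For every comparison that contains the induced shRCOR1 libraries, the members' values are therefore given as a description, with no test.

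RNA was sequenced from Kelly cells, a human neuroblastoma line with MYCN amplification and an adrenergic identity. There were 3 derivatives, each with a doxycycline-inducible short hairpin RNA: shRCOR1 against RCOR1, shRCOR2 against RCOR2, and shCTRL, a non-targeting hairpin. RCOR1 and RCOR2 encode CoREST scaffold proteins, which hold the demethylase LSD1 and histone deacetylases together in corepressor complexes. Each derivative was sequenced untreated and after 2 µg/mL doxycycline (called induced), with 2 libraries in each of the 6 groups and 12 libraries in all. The induction time is labelled 72 h in the sample labels, whereas the treatment protocol names 24 or 48 h. Each comparison was thus made within a derivative that carried its hairpin in both arms, and shCTRL gave the background of doxycycline and an expressed hairpin. Whether a derivative was a clone or a pool, and whether replicates were separate cultures, the labels do not say. All p-values therefore refer to library-to-library spread, which may be technical.

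Neuronal calcium sensors are small EF-hand proteins that bind calcium at lower concentrations than calmodulin. A fatty acid, myristate, is attached to the glycine at their amino terminus. In several members calcium binding exposes this group, which brings the protein to a membrane; NCS1 can remain at membranes without this switch. The family is best known from neurons, where members act on receptor signalling, membrane traffic and ion channels.

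The 5 members other than NCALD are shown by the opening 30 coding bases, because the myristoylated glycine is encoded there and because the strings show how alike the relatives are. The strings were read from GENCODE v29 transcripts (GRCh38), 5′ to 3′ on the coding strand, and the capitals mark the second codon, which encodes glycine.
HPCA: atgGGCaagcagaacagcaagctgcggccc
HPCAL1: atgGGCaaacagaacagcaagctgcggccc
HPCAL4: atgGGGaagaccaacagcaagctggccccc
VSNL1: atgGGGaagcagaatagcaaactggcccct
NCS1: atgGGGaaatccaacagcaagttgaagccc

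All 6 members had a glycine codon at this place, NCALD included. NCALD, HPCA and HPCAL1 had 193 codons before the stop, HPCAL4 and VSNL1 had 191, and NCS1 had 190. The coding sequence of NCALD was 80.4% identical to that of HPCAL1 and 78.8% identical to that of HPCA. HPCA and HPCAL1 were the closest pair at 88.3%, and HPCAL4 and VSNL1 were 80.6% identical. NCS1 stood farthest off, at 63.4% to 66.4% against the others. The longest stretch of identical bases between coding sequences was 44 bases (HPCA and HPCAL1), then 36 bases (HPCAL1 and HPCAL4) and 29 bases (NCALD and HPCAL1). No source used here gives the read length or the treatment of reads that match several genes, so reads of these relatives could have been shared.

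Each targeted gene was lower after induction in the line of its own hairpin. In the shRCOR1 line RCOR1 was at 8.32 and 9.08 TPM untreated and at 4.80 and 5.07 TPM induced, a log2(TPM + 1) difference of −0.71 ± 0.12 (SE; limma adjusted p = 0.0109; beyond shCTRL 0.158, and 0.0452 with the replicate block). In the shRCOR2 line RCOR2 was at 55.4 and 49.9 TPM untreated and at 17.7 and 20.5 TPM induced, a difference of −1.42 ± 0.11 (limma adjusted p = 0.000403). Beyond shCTRL this difference was −1.24 ± 0.16 (limma adjusted p = 0.0129). RCOR2 also fell in the induced shRCOR1 line, from 51.4 and 50.5 TPM to 26.0 and 26.3 TPM (−0.94 ± 0.11, limma adjusted p = 0.00278). Beyond shCTRL that RCOR2 difference was −0.75 ± 0.16 and did not pass (limma adjusted p = 0.0690, and 0.0163 with the replicate block). Relative depth varied 2.16-fold over the 12 libraries, and between 14758 and 16026 genes reached 1 TPM. All 7 adrenergic neuroblastoma markers were expressed in every library. The summed leukocyte markers reached at most 0.348 TPM, with CD3E at 0 in every library. Among the epithelial markers CDH1 was at 0 in every library, whereas EPCAM reached 4.13 TPM. The fibroblast markers COL1A1 and COL3A1 were not absent and reached 87.3 and 25.3 TPM. Transcripts of the mitochondrial genome took 13.3% to 21.4% of the TPM total, and in each of the 6 groups the second replicate had the larger share.

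Untreated Kelly derivatives expressed all 6 sensors. NCS1, which activates the phosphatidylinositol kinase PI4KB, was the most abundant at 45.0 ± 0.674 TPM (SD over the 6 untreated libraries of the 3 lines, range 44.2 to 46.1), above 79.6% of tested genes. NCALD, a clathrin- and actin-binding sensor known as a modifier of spinal muscular atrophy, was at 33.6 ± 0.873 TPM (32.1 to 34.6). HPCAL1 was at 31.0 ± 1.27 TPM (29.1 to 32.9), and its range overlapped that of NCALD. HPCA, the hippocampal sensor mutated in a recessive dystonia, followed at 17.1 ± 1.24 TPM (15.7 to 19.2). HPCAL4 was at 10.6 ± 1.48 TPM (8.90 to 12.5) and VSNL1 at 6.32 ± 0.733 TPM (5.57 to 7.03). Apart from NCALD and HPCAL1, neighbours in this order did not overlap. Untreated shRCOR2 and shCTRL cells were compared gene by gene. None of the 6 members passed, with unadjusted limma p-values from 0.443 to 0.961. Of all genes 0% passed, and 123 of 16842 had an unadjusted limma p below 0.05. That is a smaller share than 0.05, which evenly spread p-values would give. Same-numbered libraries deviated together, and the main fit leaves this in the spread, so its p-values can be too large. With the replicate block 0 genes passed as well.

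**Figure D1:**
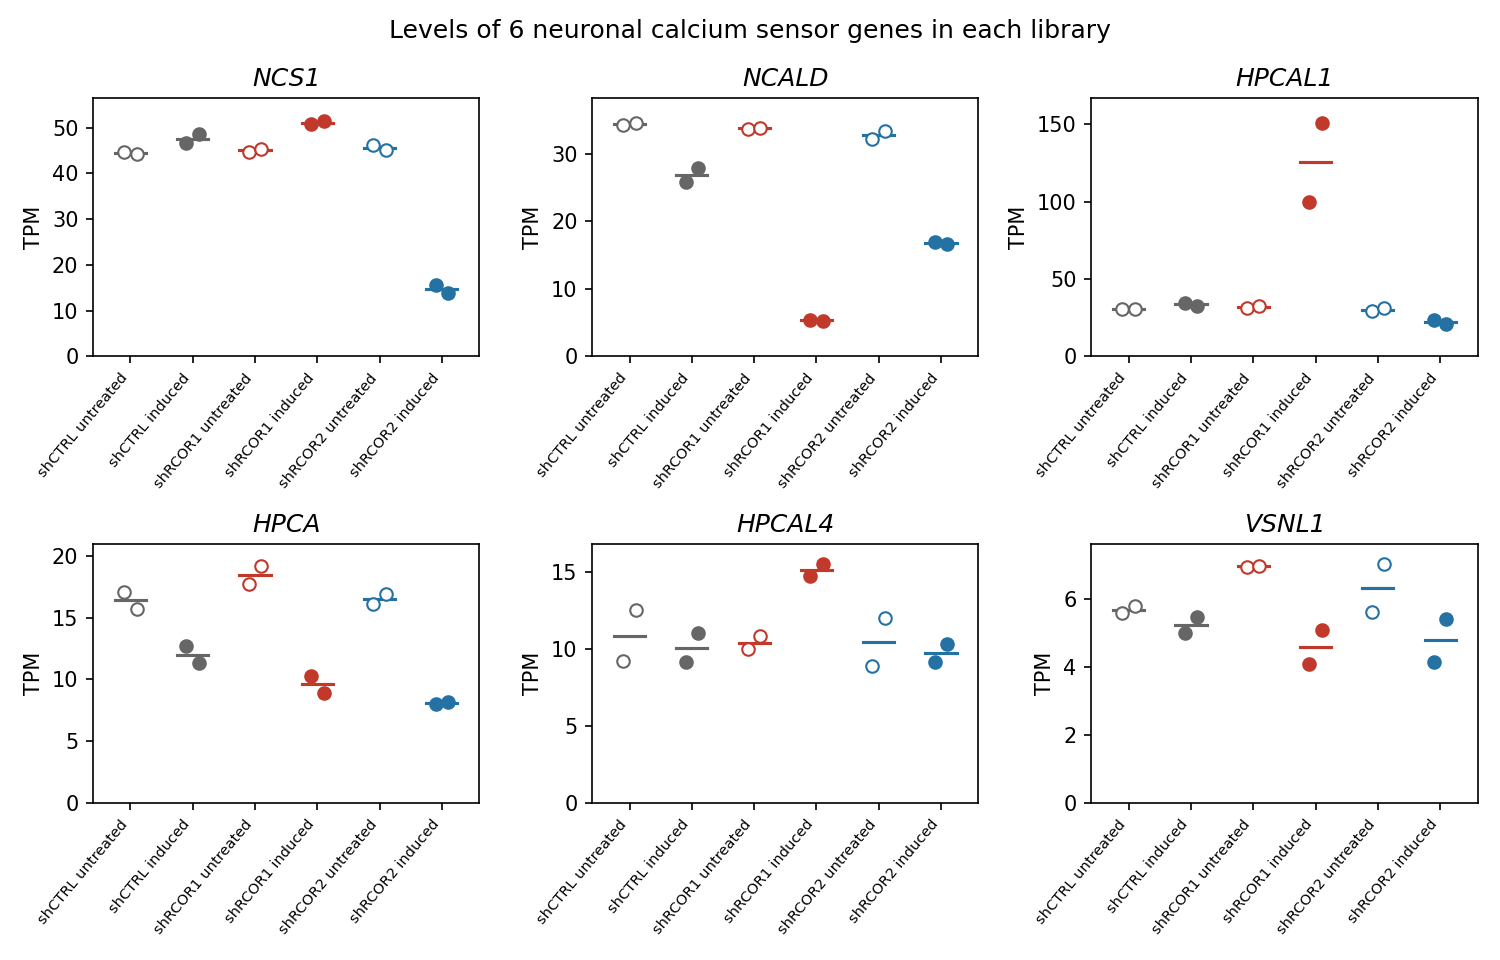
TPM of each of the 6 sensor genes (linear vertical axes from 0, scaled per gene) in the 12 libraries, by line and treatment; points are libraries, open untreated and filled induced, and bars are means of 2. NCALD is lowest in the induced shRCOR1 libraries (5.43 and 5.21), NCS1 in the induced shRCOR2 libraries (15.5 and 13.9), and HPCAL1 is highest in the induced shRCOR1 libraries (99.6 and 151).

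NCALD was lower in the induced than in the untreated cells of all 3 lines, by very different amounts. In the shRCOR1 line it was at 33.7 and 33.8 TPM untreated and at 5.43 and 5.21 TPM induced. In the shRCOR2 line it was at 32.1 and 33.3 TPM untreated and at 16.9 and 16.7 TPM induced. In the shCTRL line it was at 34.3 and 34.6 TPM untreated and at 25.8 and 27.9 TPM induced. The groups did not overlap in any line, and the 2 induced shRCOR1 libraries were below the other 10, which spanned 16.7 to 34.6 TPM. The mean in shRCOR1 cells was 6.35-fold lower after induction (33.7 ± 0.0548 against 5.32 ± 0.155 TPM, SD, n = 2), a difference of −2.46 ± 0.09 (SE) on the log2(TPM + 1) scale. Of the 16842 tested genes, 4 had a more negative difference in that contrast, from which nothing is read since NCALD was chosen there. NCALD fell 1.95-fold in shRCOR2 cells, by 0.92 ± 0.09 on that log2 scale (32.7 ± 0.856 to 16.8 ± 0.180 TPM, SD, n = 2; limma adjusted p = 0.000885). In shCTRL cells the means differed 1.28-fold (−0.35 ± 0.09), which did not pass across all genes (limma adjusted p = 0.805, unadjusted p = 0.00397).

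The differences of NCALD were then set against the shCTRL background. With the shCTRL difference taken off, NCALD differed by −2.11 ± 0.13 (SE, log2 scale) in shRCOR1 cells, given without a test. In shRCOR2 cells the difference beyond shCTRL was −0.57 ± 0.13, and it did not pass (limma adjusted p = 0.0604); it passed with the replicate number as a block (limma adjusted p = 0.0132) and with no filter on expression (limma adjusted p = 0.0320). Over all 19 alternatives this adjusted p ranged from 0.0132 to 0.215. Because these are bulk libraries, fewer cells with a transcript and less of it per cell cannot be told apart.

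NCS1 was low after induction in shRCOR2 cells and not in shRCOR1 cells. In the shRCOR2 line it was at 46.1 and 45.1 TPM untreated and at 15.5 and 13.9 TPM induced. In the shRCOR1 line it was at 44.6 and 45.4 TPM untreated and at 50.7 and 51.4 TPM induced. In the shCTRL line it was at 44.7 and 44.2 TPM untreated and at 46.6 and 48.5 TPM induced. Only the 2 induced shRCOR2 libraries were low; the other 10 lay between 44.2 and 51.4 TPM. NCS1 fell 3.10-fold in shRCOR2 cells (45.6 ± 0.682 to 14.7 ± 1.12 TPM, SD, n = 2), a log2(TPM + 1) difference of −1.57 ± 0.09 (SE; limma adjusted p = 0.000118), and 49 tested genes had a more negative one. The shCTRL difference was 0.09 ± 0.09 (limma adjusted p = 0.978). The shRCOR2 difference beyond shCTRL was −1.66 ± 0.12 (limma adjusted p = 0.00186, and 0.000283 to 0.0247 over the 19 alternatives). In shRCOR1 cells NCS1 was 1.13-fold higher after induction (0.18 ± 0.09); beyond shCTRL this came to 0.08 with the TPM as deposited and to −0.01 under median-of-ratios scaling, so no direction beyond shCTRL is given.

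HPCAL1 was higher in induced shRCOR1 cells, opposite to NCALD. HPCAL1 encodes a sensor also known as visinin-like protein 3. In the shRCOR1 line it was at 31.3 and 32.9 TPM untreated and at 99.6 and 151 TPM induced. In the shRCOR2 line it was at 29.1 and 31.5 TPM untreated and at 23.7 and 20.9 TPM induced. In the shCTRL line it was at 30.6 and 30.4 TPM untreated and at 34.4 and 32.7 TPM induced. The 2 induced shRCOR1 libraries stood above the other 10 (20.9 to 34.4 TPM) but were themselves far apart. Their mean of 126 ± 36.6 TPM (SD, n = 2) was 3.91-fold above the untreated 32.1 ± 1.13 TPM, and the ratios for libraries of the same replicate number were 3.18 and 4.60. The log2(TPM + 1) difference was 1.90 ± 0.17 (SE), 1.60 when the higher induced library was left out and 2.2 when the lower was. In shRCOR2 cells HPCAL1 was 1.36-fold lower without passing (−0.43 ± 0.17, limma adjusted p = 0.136). The fit shares the spread of a gene across all groups, so the far-apart induced shRCOR1 libraries enter this adjusted p-value. That value passed when either induced shRCOR1 library was left out (limma adjusted p = 0.0355 and 0.0356), and it ranged from 0.0355 to 0.452 over the alternatives. The shRCOR2 difference beyond shCTRL was −0.56 ± 0.24 (limma adjusted p = 0.283).

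HPCA was lower after induction in all 3 lines. In the shRCOR1 line it was at 17.7 and 19.2 TPM untreated and at 10.3 and 8.86 TPM induced. In the shRCOR2 line it was at 16.1 and 16.9 TPM untreated and at 7.96 and 8.18 TPM induced. In the shCTRL line it was at 17.1 and 15.7 TPM untreated and at 12.7 and 11.3 TPM induced. Untreated and induced libraries did not overlap in any line. HPCA fell 2.04-fold in shRCOR2 cells (16.5 ± 0.514 to 8.07 ± 0.158 TPM, SD, n = 2; −0.95 ± 0.12 on the log2 scale, limma adjusted p = 0.00250). The shCTRL difference was 1.37-fold (−0.43 ± 0.12, limma adjusted p = 0.805, unadjusted p = 0.00648), and the shRCOR2 difference beyond it was −0.52 ± 0.17 (limma adjusted p = 0.155, and 0.0481 with the replicate block). In shRCOR1 cells HPCA was 1.93-fold lower (−0.88 ± 0.12). HPCA overlaps TMEM54 on the opposite strand of chromosome 1, and TMEM54 rose in shRCOR1 cells from 15.9 to 36.8 TPM (1.17 ± 0.19, limma adjusted p = 0.00897). No source used here states whether the quantification used strand, so the reads of this pair could have been mixed.

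HPCAL4 and VSNL1 were the least abundant members in untreated cells. HPCAL4 was at 10.0 and 10.8 TPM in untreated and at 14.7 and 15.5 TPM in induced shRCOR1 cells, 1.45-fold higher (0.50 ± 0.18 on the log2 scale). It was at 8.90 and 12 against 9.15 and 10.3 TPM in shRCOR2 cells, and at 9.19 and 12.5 against 9.11 and 11 TPM in shCTRL cells, where untreated and induced libraries overlapped in both lines. The shRCOR2 difference was −0.08 ± 0.18 (limma adjusted p = 0.819), with a 95% interval of −0.50 to 0.34, so that a change of moderate size in either direction would not have been detected. VSNL1, a sensor measured in cerebrospinal fluid as a marker of neuronal injury, was at 6.94 and 6.98 TPM in untreated and at 4.08 and 5.09 TPM in induced shRCOR1 cells, 1.52-fold lower (−0.52 ± 0.17). In shRCOR2 cells VSNL1 was at 5.61 and 7.03 TPM untreated and at 4.15 and 5.40 TPM induced (−0.34 ± 0.17, limma adjusted p = 0.209, and 0.0497 with the replicate block). In shCTRL cells it was at 5.57 and 5.78 TPM untreated and at 4.99 and 5.48 TPM induced (−0.10 ± 0.17, limma adjusted p = 0.993). Both genes were higher in replicate 2 than in replicate 1 in all 6 groups, as was the mitochondrial share of TPM, whose part in these values was not tested.

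In counts, 3 of the 6 members (NCALD, NCS1 and HPCA) fell in shRCOR2 cells, and 4 did with the replicate block, where VSNL1 was added. Over all tested genes, 14.3% passed in either direction and 6.47% fell in that contrast, against 36.2% and 14.8% with the block. The median difference of the members in shRCOR2 cells was −0.67 (log2 scale), beside 0.07 for all tested genes. Beyond shCTRL 1 of the 6 passed (NCS1), beside 2.09% of all genes in either direction and 1.20% that were lower. With the block 3 of 6 passed (NCS1, NCALD and HPCA), beside 14.7% and 5.80%. None of the 6 passed in shCTRL cells, where 0% of all genes passed without the block (938 had an unadjusted limma p below 0.05) and 0.0594% with it. Untreated and induced libraries did not overlap for 6 of 6 members in shRCOR1 cells, beside 53.1% of all tested genes, from which nothing is read since the members were chosen there. They did not overlap for 5 of 6 in shRCOR2 cells, beside 63.3%, and for 5 of 6 in shCTRL cells, beside 23.5%. The shRCOR1 contrast called 8.62% of all tested genes. The differences of both CoREST lines were set against the same shCTRL libraries.

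**Figure D2:**
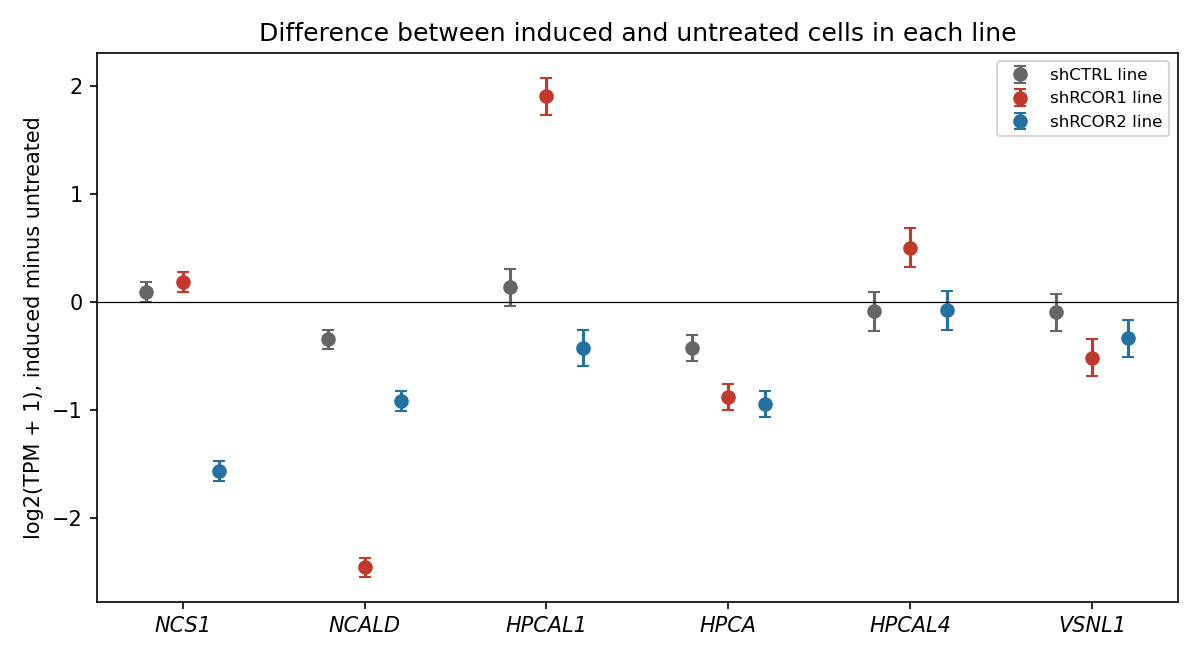
Difference in log2(TPM + 1) between induced and untreated cells (vertical axis) for the 6 sensor genes in the shCTRL, shRCOR1 and shRCOR2 lines; points are limma estimates from 2 against 2 libraries and bars are 1 standard error. NCALD is at −2.46 in shRCOR1 and −0.92 in shRCOR2 cells, whereas NCS1 is at 0.18 and −1.57.

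The summed level of the 6 genes and its make-up differed between treatments in all 3 lines. Their summed level was 144 and 149 TPM in untreated and 185 and 237 TPM in induced shRCOR1 cells. It was 138 and 146 TPM in untreated and 77.4 and 75.4 TPM in induced shRCOR2 cells, and 141 and 143 against 134 and 137 TPM in shCTRL cells. The groups did not overlap in any line. NCALD held 23.0% ± 0.480 (SD, n = 2) of the sum in untreated and 2.56% ± 0.525 in induced shRCOR1 cells, while HPCAL1 went from 21.9% ± 0.277 to 58.8% ± 6.98. In shRCOR2 cells the NCALD share was 23.1% untreated and 22.0% induced, whereas the NCS1 share was 32.2% and 19.3% and the HPCAL1 share 21.3% and 29.2%. In shCTRL cells NCALD held 24.2% untreated and 19.8% induced, NCS1 31.2% and 35.2%, and HPCAL1 21.4% and 24.8%. The order of levels differed accordingly. In induced shRCOR1 cells it ran HPCAL1, NCS1, HPCAL4, HPCA, NCALD and VSNL1, in induced shRCOR2 cells HPCAL1, NCALD, NCS1, HPCAL4, HPCA and VSNL1, and in induced shCTRL cells NCS1, HPCAL1, NCALD, HPCA, HPCAL4 and VSNL1, with no overlap between neighbours within a group.

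**Figure D3:**
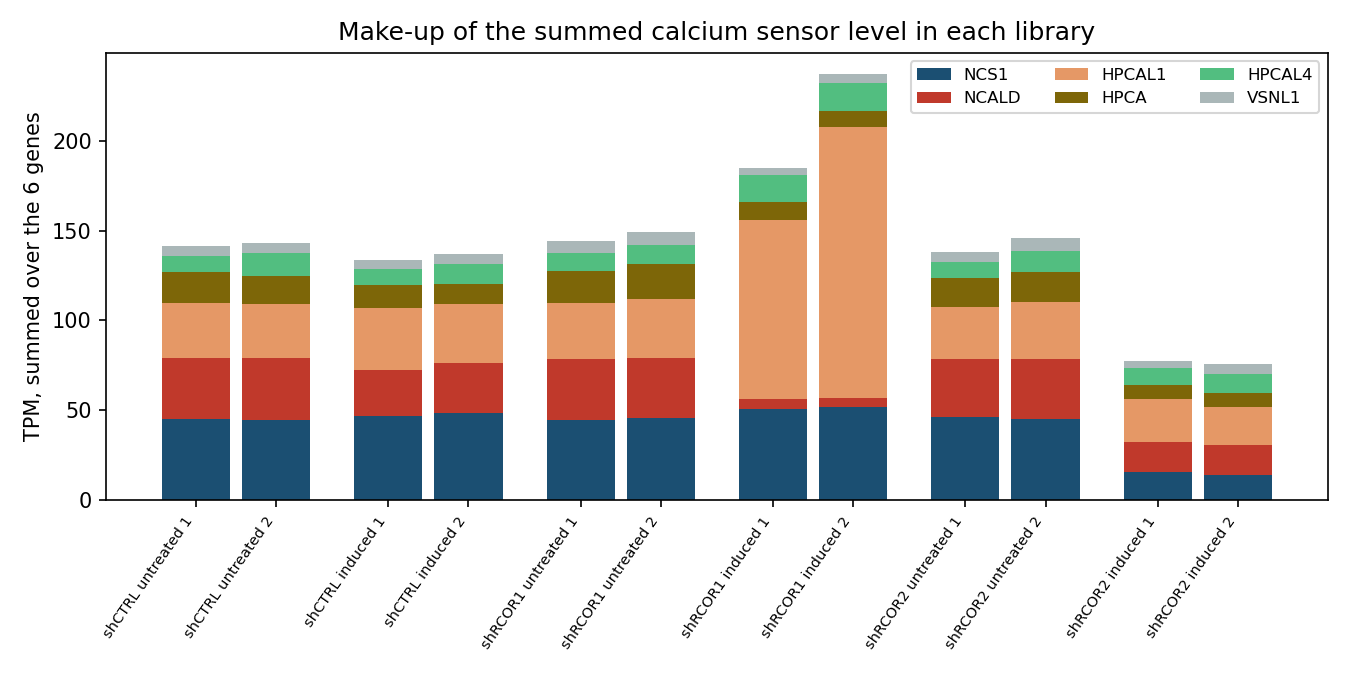
Summed TPM of the 6 sensor genes (vertical axis, from 0) in each of the 12 libraries, stacked by gene. HPCAL1 makes up 53.9% and 63.8% of the bar in the induced shRCOR1 libraries, and the induced shRCOR2 bars are the shortest at 77.4 and 75.4 TPM.

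Markers of cell state moved in the same contrasts. The summed level of 6 mesenchymal neuroblastoma markers, mostly VIM, was 86.1 to 133 TPM in untreated and 195 to 376 TPM in induced shRCOR1 cells, 87.5 to 162 against 64.6 to 77.9 TPM in shRCOR2 cells, and 115 to 264 against 129.7 to 331 TPM in shCTRL cells. The summed level of 7 adrenergic markers was 5998 to 6110.1 against 4816 to 4896 TPM in shRCOR1 cells and 5776 to 5799 against 3467 to 3735 TPM in shRCOR2 cells. MYCN had the highest median of the 7 (2531 TPM, 1042 to 3019.9 over the 12 libraries), so the sum does not describe each marker. In shCTRL cells the adrenergic sum was 5142 to 5838 against 4346 to 5707 TPM. The epithelial sum, from EPCAM with CDH1 at 0, was 0.286 to 0.309 against 3.18 to 4.13 TPM in shRCOR1 cells and at most 1.68 TPM in all other groups. The summed fibroblast markers COL1A1 and COL3A1 were at 7.76 to 26.2 against 25.2 to 63.8 TPM in shRCOR1 cells, 9.07 to 42.7 against 11.3 to 17.2 TPM in shRCOR2 cells and 16.4 to 113 against 13.2 to 104 TPM in shCTRL cells. The part of these markers in the NCALD, NCS1 and HPCAL1 values was not tested.

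The positions of the members are those of the deposited tables (GRCh38). NCALD (ENSG00000104490.18) spans chr8:101686542-102124907 on the minus strand, the longest of the 6 at 438 kb. HPCAL1 (ENSG00000115756.13) lies at chr2:10302889-10427617 (plus) and VSNL1 (ENSG00000163032.12) at chr2:17539126-17657018 (plus). HPCA (ENSG00000121905.10) lies at chr1:32885994-32898441 (plus) and HPCAL4 (ENSG00000116983.13) at chr1:39678648-39691485 (minus). NCS1 (ENSG00000107130.10) lies at chr9:130172404-130237303 (plus). All 6 are protein-coding in GENCODE v29, and NCALD has 24 annotated coding transcripts there, against 1 for HPCA and 2 for NCS1. The values are sums over a gene's transcripts, so the transcripts behind them cannot be told apart.

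Tested genes near NCALD on the chromosome were read beside it. Of 5 such genes on either side, none fell in shRCOR1 cells, where 8.62% of all tested genes passed in either direction. So few genes cannot show whether a low level was shared along the chromosome. YWHAZ, a 14-3-3 protein gene 733 kb away, rose there (0.54 ± 0.08 on the log2 scale, limma adjusted p = 0.00555) and fell in shRCOR2 cells (−0.71 ± 0.08, limma adjusted p = 0.00166). ZNF706, a zinc finger gene 480.3 kb away, also fell in shRCOR2 cells (−0.58 ± 0.12, limma adjusted p = 0.0155), with 0.28 ± 0.12 in shRCOR1 cells (limma adjusted p = 0.193). RRM2B, the p53-induced ribonucleotide reductase subunit gene 79.6 kb from NCALD, rose in shRCOR2 cells (0.84 ± 0.17, limma adjusted p = 0.0141), with 0.29 ± 0.17 in shRCOR1 cells (limma adjusted p = 0.345). ZNNT1 and AP002852.1 passed in no line. In shRCOR2 cells, where NCALD fell, 2 of these 5 neighbours fell and 1 rose. Of all tested genes 14.3% passed there in either direction and 6.47% fell, and nothing is read from the 5. The 3 genes that overlap NCALD (AP001329.1, AP000426.1 and PDCL3P2) were at 0.165 TPM or less in every library.

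**Figure D4:**
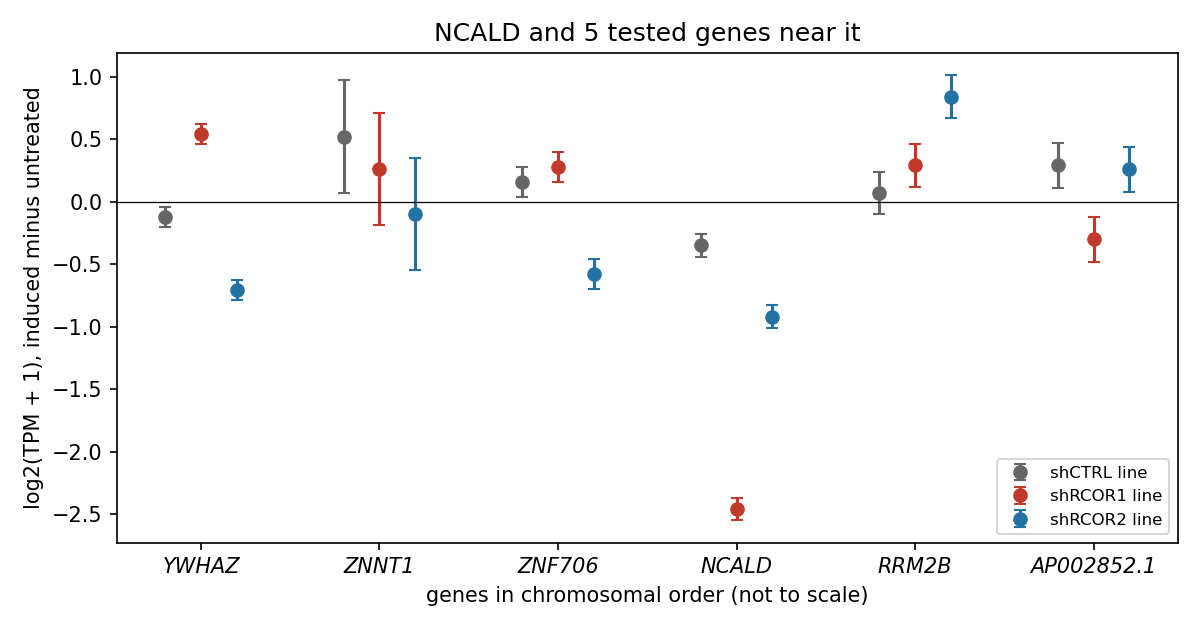
Difference in log2(TPM + 1) between induced and untreated cells (vertical axis) for NCALD and 5 tested genes near it, in chromosomal order and not to scale, in the shCTRL, shRCOR1 and shRCOR2 lines; points are limma estimates from 2 against 2 libraries and bars are 1 standard error. NCALD is at −2.46 in shRCOR1 cells, where YWHAZ is at 0.54 and RRM2B at 0.29.

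Promoter windows were available for the other members (RefSeq, GRCh38.p14; 300 bases around each annotated start). The HPCA window had 80.3% G and C and 35 CpG pairs, beside medians of 58.7% and 14.0 over all 35116 windows. The HPCAL4 window had 69.3% G and C. HPCAL1 had 3 annotated windows of 81.3%, 72.7% and 47.7%, VSNL1 had 53.7% and 61.0%, and NCS1 had 82.7% and 52%. The HPCA window held 5 copies of GGGCGG, counted on both strands, and the HPCAL1 window of 81.3% and the NCS1 window of 82.7% held 4 each. At least 1 copy was present in 45.0% of all windows, for which copy numbers are not given. The E-box CACGTG, which MYCN can bind and which 7.26% of all windows held, occurred once, in the HPCAL1 window of 72.7%. No binding data were analysed here.

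The transcripts whose profile was closest to NCALD over the 12 libraries were ranked by Pearson's r of log2(TPM + 1). The 10 highest were TECR (0.984), TYW3 (0.976), PYGO2 (0.975), KIF26B (0.975), M6PR (0.974), C9orf78 (0.972), ACAT1 (0.972), DPAGT1 (0.971), TMEM119 (0.969) and DYRK3 (0.967). These are descriptions over libraries that share groups and replicate numbers. The size of the differences varied within this set. TECR went from a mean of 181 to 128 TPM in shRCOR1 cells, KIF26B from 25.6 to 8.76 TPM and TMEM119 from 63.6 to 24.7 TPM. In shRCOR2 cells KIF26B went from 27.1 to 20.6 TPM and TMEM119 from 62.0 to 36.8 TPM. The profile of NCS1 was closest to BZW2 (0.994; 329 to 115 TPM in shRCOR2 cells) and DERL1 (0.991), and that of HPCAL1 to TYRO3 (0.984) and CSRNP1 (0.984; 4.91 to 19.6 TPM in shRCOR1 cells). HPCA was closest to CARHSP1 (0.968) and CEP128 (0.961), HPCAL4 to TNFAIP1 (0.977) and SEC14L2 (0.971), and VSNL1 to NEURL1 (0.919) and LNP1 (0.918). None of these 20 was another sensor. Among the members, r with NCALD was 0.73 for HPCA, 0.68 for VSNL1, 0.07 for NCS1, −0.68 for HPCAL4 and −0.81 for HPCAL1.

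Other genes of the pathway were read from 5 lists. Of 53 listed genes 42 were tested, and in shRCOR1 cells 4 were called higher and 1 lower. Of the 4, CABP7 and ITPR3 reached 1 TPM only in the induced shRCOR1 libraries and entered the tests through them, so their p-values are not given and the count is not read against the 8.62% of all genes. In shRCOR2 cells 3 rose and 3 fell, 14.3% beside 14.3%, and in shCTRL cells none passed. With the replicate block 10 were called higher and 4 lower in shRCOR1 cells. The same pair was among the 10, so this count is not read against the 27.4% of all genes either. In shRCOR2 cells 6 rose and 9 fell with the block, beside 36.2%. Among the other neuronal calcium sensors (KCNIP, recoverin and guanylate cyclase activators), 5 of 8 were tested and none passed in any line, with a median of −0.27 in shRCOR1 and 0.02 in shRCOR2 cells (log2 scale). With the replicate block KCNIP4, a potassium channel-interacting protein gene, fell in shRCOR1 cells (10.4 to 6.20 TPM; limma adjusted p = 0.247 without and 0.0113 with the block). None of the 4 lipidation enzymes, the myristoyl transferases and methionine aminopeptidases, passed either, with medians of 0.11 and −0.24, and with the replicate block 2 of them fell in shRCOR2 cells.

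Of the reported binding partners of the sensors 11 of 14 were tested, and 2 rose in each CoREST line. Over all tested genes 8.62% passed in shRCOR1 and 14.3% in shRCOR2 cells, in either direction, and nothing is read from the 2 counts. The genes that rose are named as single values. In shRCOR1 cells these were CLTC, the clathrin heavy chain, from 172 ± 11.8 to 225 ± 7.91 TPM (SD, n = 2; limma adjusted p = 0.0379), and DRD2, the dopamine receptor that NCS1 binds, from 27.4 ± 0.271 to 50.7 ± 5.88 TPM (limma adjusted p = 0.0477). CLTC also passed beyond shCTRL (0.72 ± 0.13, limma adjusted p = 0.0410), where its shCTRL value was −0.34. In shRCOR2 cells the kinase PI4KB rose from 57.9 ± 2.39 to 78.0 ± 1.21 TPM (limma adjusted p = 0.0294), and PICK1, a PDZ and BAR domain protein of receptor traffic, from 29.9 ± 1.97 to 53.8 ± 2.56 TPM (limma adjusted p = 0.00920). A link of these values to that of NCS1 was not tested. Neither passed beyond shCTRL (limma adjusted p = 0.228 and 0.118), whereas PICK1 did with the replicate block (limma adjusted p = 0.0235). The list's medians were 0.30 in shRCOR1 and 0.22 in shRCOR2 cells.

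Of 15 other EF-hand calcium binders 11 were tested. CALM3, a calmodulin gene, fell in shRCOR2 cells from 434 ± 21.7 to 237 ± 1.87 TPM (SD, n = 2; limma adjusted p = 0.0107). CABP7, a calcium-binding inhibitor of PI4KB, was at 0.498 and 0.456 TPM in untreated and at 1.37 and 1.55 TPM in induced shRCOR1 cells, and at most at 0.614 TPM in the other lines. Medians were 0.23 in shRCOR1 and −0.43 in shRCOR2 cells. The shRCOR1 median includes CABP7, which entered through those libraries, so it is not read against all genes. Of 12 calcium store, pump and exchanger genes 11 were tested. The sodium-calcium exchanger SLC8A1 fell in both lines, from 6.71 to 3.87 TPM in shRCOR1 (limma adjusted p = 0.0182) and from 7.55 to 5.02 TPM in shRCOR2 cells (limma adjusted p = 0.0370). The endoplasmic reticulum calcium sensor STIM2 rose in shRCOR2 cells from 17.6 to 28.4 TPM (limma adjusted p = 0.0153). The IP3 receptor ITPR3 was at 0.0813 and 0.289 TPM in untreated and at 1.28 and 3.82 TPM in induced shRCOR1 cells, and at most at 0.709 TPM in the other lines. Medians were 0.20 in shRCOR1 and −0.09 in shRCOR2 cells, and the shRCOR1 median includes ITPR3, so it is likewise not read. CLTC alone of the 42 passed beyond shCTRL, in shRCOR1 cells, beside 1.28% of all genes. With the replicate block 6 of the 42 passed beyond shCTRL in shRCOR1 cells. CABP7 and ITPR3 were among them, so this count is not read against the 10.2% of all genes. In shRCOR2 cells 8 passed with the block, beside 14.7%.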

How the data were processed

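RNA (RNeasy Plus, NEBNext Ultra II Directional libraries, per the labels' protocols) was sequenced in 12 libraries of 6 groups. The submitters' processing notes name Trim Galore 0.6.7, HISAT2 2.2.1, StringTie 2.1.7 and GRCh38; no source used here gives the annotation release, strand setting or multimapping. The deposited gene tables hold TPM, FPKM and coverage, with no counts, per the file headers. TPM of repeated gene identifiers were summed, and genes reaching 1 TPM in 2 or more libraries entered the tests. Differences of log2(TPM + 1) were fitted with limma 3.58.1 in R 4.3.3 (6 group means, all 12 libraries, moderated with trend), with Benjamini-Hochberg adjustment over 16842 genes and 0.05 as threshold. The deposited FPKM served as an alternative, and the ratio of deposited coverage signal to FPKM over 1185 single-transcript genes gave relative depth. No counts were analysed here, so depth enters only through the spread between libraries. Same-numbered libraries deviated together from their group means (15 group pairs, correlations 0.37 to 0.75), so the numbers were taken to pair libraries; the fit without the block was the main one. Named genes were the members, RCOR1 and RCOR2, called genes of the 5 lists (at most 4 per list and contrast), the nearest (3 on each side) and overlapping genes, and those with the highest r; some genes this rule names are not reported here. Members and lists were chosen with earlier results of these data known. The fit was tested on simulated data in which libraries were drawn independently, so that test does not cover the shared deviation of same-numbered libraries. Tables and figures used Python 3.11.15, pandas 2.3.3 and matplotlib 3.10.9.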

Additional observations from a re-analysis of the deposited data

Results flagged for a closer look

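HPCAL1 had differences of opposite sign in the lines, 1.90 in shRCOR1 and −0.43 in shRCOR2 cells (log2(TPM + 1), induced minus untreated), every library of one line moving up and every library of the other down; this difference was not tested. HPCAL1 also differed in sign between shRCOR2 (−0.43) and shCTRL cells (0.13), and the test of that difference did not pass (limma adjusted p = 0.283).

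NCS1 differed between shRCOR2 and shCTRL cells, −1.57 against 0.09, and the difference of −1.66 passed (limma adjusted p = 0.00186), lower in both induced libraries of shRCOR2 and higher in both of shCTRL. NCS1 was also of opposite sign in shRCOR1 (0.18 ± 0.09, SE) and shRCOR2 (−1.57 ± 0.09) cells, a difference that was not tested. Beyond shCTRL the shRCOR1 value of NCS1 was 0.08 ± 0.12, and no direction is given for it. With 2 libraries in a group, no library could be judged as standing apart from its group.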

How the results depend on the processing

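Every member and count was recomputed under 19 alternatives: FPKM, a pseudocount of 0.1, no filter or TPM of at least 1 in all libraries, median-of-ratios scaling, no mitochondrially encoded genes, the replicate block, and each library left out. With the replicate block, by which same-numbered libraries are paired, 6100 genes passed in shRCOR2 (2406 without), 4620 in shRCOR1 (1451), 10 in shCTRL (0) and 2481 in the shRCOR2 difference beyond shCTRL (352); 3 members passed in the last (1 without). Beside the calls printed in the report, the block changed no other member's call. With no filter, 6 genes passed in shCTRL, 5 between untreated shRCOR2 and shCTRL cells (0), and 2 members in the difference beyond shCTRL. Without mitochondrially encoded genes 231 passed in that difference. Leaving out a library gave 493 to 3036 genes in shRCOR2, 326 to 1900 in shRCOR1, 19 to 321 in the difference beyond shCTRL, 0 to 0 in shCTRL and 0 to 1 between untreated lines; the shRCOR2 and shRCOR1 counts moved by over 1.5 times only without a library of their own line, and the difference beyond shCTRL without any library but shCTRL induced replicate 1. Members that passed ranged from 3 to 4 in shRCOR2, 1 to 1 beyond shCTRL and 0 to 0 in shCTRL and between untreated lines. NCALD, NCS1 and HPCA fell in shRCOR2 under all 19. The NCS1 value in shRCOR1 beyond shCTRL was 0.08, and −0.01 with median-of-ratios scaling, the cause was not tested. HPCAL4 kept its sign in 17 of 19 alternatives in shRCOR2 and in shCTRL, and in 14 of 19 beyond shCTRL. NCALD in shRCOR1 lay between −2.64 and −2.26.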
